A study of Arabidopsis thaliana with 24 samples.

Results

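Trehalose phosphate synthases are the enzymes and enzyme-like proteins at the head of the trehalose pathway of plants. The genes described here are 8 loci of Arabidopsis thaliana, chosen by locus identifier and not by their values, among 23865 genes listed in at least 1 of the authors' 5 deposited tables. They are TPS1 (AT1G78580), TPS5 (AT4G17770), TPS6 (AT1G68020), TPS7 (AT1G06410), TPS8 (AT1G70290), TPS9 (AT1G23870), TPS10 (AT1G60140) and TPS11 (AT2G18700). All 8 were listed in each of the 4 tables that span most genes, and only TPS11 was in the table of H2O2 against mock, which holds only genes past the authors' threshold. The related loci TPS2 and TPS3 were in none of the tables.

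A trehalose phosphate synthase joins UDP-glucose and glucose 6-phosphate into trehalose 6-phosphate, which trehalose phosphate phosphatases (TPP) turn into trehalose and trehalase then splits into glucose. Trehalose 6-phosphate follows sucrose in plant tissue and is known to hold back SnRK1, a protein kinase that acts when sugar is short, so the pathway is studied as a link between carbon and nitrogen supply. TPS1 stands for class I, the group with proven synthase activity, and is needed for embryo growth. TPS5 to TPS11 form class II, which carries a synthase-like and a phosphatase-like part, has little or no proven catalytic activity and is held to act in regulation. Of these, TPS5 is known to rise with sugar, and TPS8 to TPS11 are known to rise when sugar is short.

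Messenger RNA was sequenced from seedlings of 8 groups, each with 3 biological replicates, which gives 24 libraries. All plants spent 7 days on 7 mM KNO3 followed by 2 days on nitrogen-free medium, so the control groups were starved of nitrogen too. Wild-type Col-0 then received 10 mM KNO3, 0.5 mM H2O2, or KNO3 with H2O2, for 3 h, or mock treatment. The mutants hbi-q and nlp7-1 received mock or KNO3. The labels give no duration for mock. The names of the authors' comparisons give the control as KCL, also beside H2O2 in the comparison of KNO3 with H2O2. The labels name hbi-q a mutant without saying which HBI genes, a family of basic helix-loop-helix transcription factors, it lacks, and nlp7-1 is 1 mutant allele of NLP7, a transcription factor of the early nitrate response.

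The comparisons ask how nitrate and H2O2, a reactive oxygen species, change transcript levels and whether the mutants respond as wild type does. The values are the authors' own DESeq2 results per gene, and values per library were not analysed here. Base means, the average of counts scaled for library size over the libraries of a fit, summed to between 2.01e+07 and 2.09e+07 in each of the 4 tables that span most genes, and how deeply each library was sequenced is unknown. The median standard error of a log2 fold change, over genes with a base mean of at least 100, was 0.0960 for wild type and for hbi-q, 0.0999 for KNO3 with H2O2 and 0.180 in nlp7-1. NLP7 itself had a base mean of 446 in the nlp7-1 table and of 1057 in the table of wild type and hbi-q, tables that were normalised separately. In whole seedlings, fewer cells of a type and less RNA per cell cannot be told apart.

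The class II genes share 1 build, and TPS1 has another. In the RefSeq annotation of TAIR10.1, the class II genes each had 3 coding exons and encoded proteins of 851 to 867 residues, whereas TPS1 had 17 coding exons and encoded 942. TPS1 lies on the minus strand at chr1:29552340-29560912, and TPS5, the gene with the highest level, on the plus strand at chr4:9876172-9880386. TPS6 is at chr1:25496928-25500584 and TPS7 at chr1:1954674-1958866, both on the plus strand. TPS8, on the minus strand, is at chr1:26470795-26474833, and TPS9, on the plus strand, is at chr1:8432179-8435656. TPS10 spans chr1:22176934-22181740 on the minus strand, and TPS11 spans chr2:8108898-8112010 on the plus strand. TPS1, TPS5 and TPS6 overlap genes on the opposite strand (AT1G78570 and AT1G09827, AT4G17780, and AT1G68030), and the sources used here do not say whether counting used strand, so the values of these genes are less certain.

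Among the proteins, TPS8, TPS9 and TPS10 were close to each other, as were TPS5 and TPS6. TPS8 and TPS9 were 84.6% identical over their aligned length, TPS9 and TPS10 72.8%, TPS8 and TPS10 72.1%, and TPS5 and TPS6 71.7%. The 21 class II pairs ranged from 58.1% to 84.6%, and TPS1 shared 34.7% to 37.6% with the 7 class II proteins. None of the 8 genes held a transcript stretch of 50 bases found in another member, so an exact read of that length points to 1 gene among the 8.

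The 300 bases before the annotated start of TPS5, TPS9, TPS10 and TPS11, 4 of the 5 genes whose nitrate response differed between genotypes or with H2O2, are shown here, since these windows differ in the short elements they hold. They are read from the TAIR10.1 genome of RefSeq, 5′ to 3′ on the strand of the gene, at chr4:9875872-9876171 (plus strand), chr1:8431879-8432178 (plus strand), chr1:22181741-22182040 (minus strand) and chr2:8108598-8108897 (plus strand). Capitals mark ACGT, the core of many bZIP sites, TATCCA, an element of sugar-repressed promoters, and AACCCTA, the telo-box, on either strand.
TPS5: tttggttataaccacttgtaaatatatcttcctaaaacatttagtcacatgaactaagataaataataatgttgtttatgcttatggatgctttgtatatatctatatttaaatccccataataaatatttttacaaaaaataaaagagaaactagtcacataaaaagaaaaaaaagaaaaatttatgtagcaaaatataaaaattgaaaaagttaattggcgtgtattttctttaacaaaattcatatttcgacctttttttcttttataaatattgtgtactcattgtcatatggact
TPS9: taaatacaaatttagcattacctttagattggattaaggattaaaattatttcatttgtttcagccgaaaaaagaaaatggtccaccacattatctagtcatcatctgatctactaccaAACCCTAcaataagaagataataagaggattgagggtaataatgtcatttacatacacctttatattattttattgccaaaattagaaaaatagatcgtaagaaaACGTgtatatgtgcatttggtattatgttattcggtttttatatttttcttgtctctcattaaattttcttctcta
TPS10: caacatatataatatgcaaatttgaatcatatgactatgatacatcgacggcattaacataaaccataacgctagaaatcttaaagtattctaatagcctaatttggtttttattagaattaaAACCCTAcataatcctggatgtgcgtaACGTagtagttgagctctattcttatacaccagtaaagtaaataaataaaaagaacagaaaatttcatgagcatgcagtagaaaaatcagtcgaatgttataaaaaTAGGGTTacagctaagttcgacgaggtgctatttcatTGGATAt
TPS11: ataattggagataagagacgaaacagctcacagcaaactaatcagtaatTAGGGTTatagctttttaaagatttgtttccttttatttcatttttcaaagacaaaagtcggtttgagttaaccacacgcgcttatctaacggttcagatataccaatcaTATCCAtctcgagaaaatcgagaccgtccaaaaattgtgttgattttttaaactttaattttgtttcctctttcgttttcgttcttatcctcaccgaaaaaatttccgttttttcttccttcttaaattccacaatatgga

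Short elements were counted on both strands in the windows of 7 members, TPS6 being left out. The telo-box was present before 3 of the 7 genes, TPS9, TPS10 (at 2 places) and TPS11, against 7.58% of 27443 promoters of the same length. TATCCA was present before TPS10 and TPS11, and in 16.2% of all promoters. ACGT was before TPS8, TPS9 and TPS10, against 49.0%. The E-box CANNTG, the class of site that basic helix-loop-helix factors bind, was before 6 of the 7 genes, all but TPS11, against 61.9%. The G-box CACGTG, which contains ACGT and is itself an E-box, was in none of the 7 windows and in 7.09% of promoters. TTGAC, the core of the W-box of WRKY factors, was before TPS1 (50.4% of promoters), as was TGACG, which can overlap both TTGAC and ACGT (21.3%), and GAATC was before TPS10 (45.0%). GACCCTT, a part of the nitrate-responsive element, was in none of the 7 windows and in 1.37% of all promoters. Each match describes letters in a window and shows no binding.

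TPS5 and TPS7 made up most of the family's transcripts. Per kilobase of the longest transcript, the shared base mean of wild type and hbi-q, from the authors' deposited table, was 1612 normalised counts for TPS5 and 963 for TPS7. Lower levels per kilobase came from the same authors' deposited table for TPS10 (325), TPS1 (309), TPS6 (156), TPS9 (152), TPS11 (72.5) and TPS8 (64.4). TPS5 thus held 44.1% of the summed level and TPS7 26.3%. The order of neighbours is a description, because the base mean has no error of its own, and TPS10 and TPS1, TPS6 and TPS9, and TPS11 and TPS8 were within a small margin of each other. In the nlp7-1 table TPS1 (249 per kilobase) and TPS10 (245) changed places, and in the table of KNO3 with H2O2 TPS11 moved from the seventh place to the fifth, with 172 per kilobase in the authors' deposited table.

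**Figure D1:**
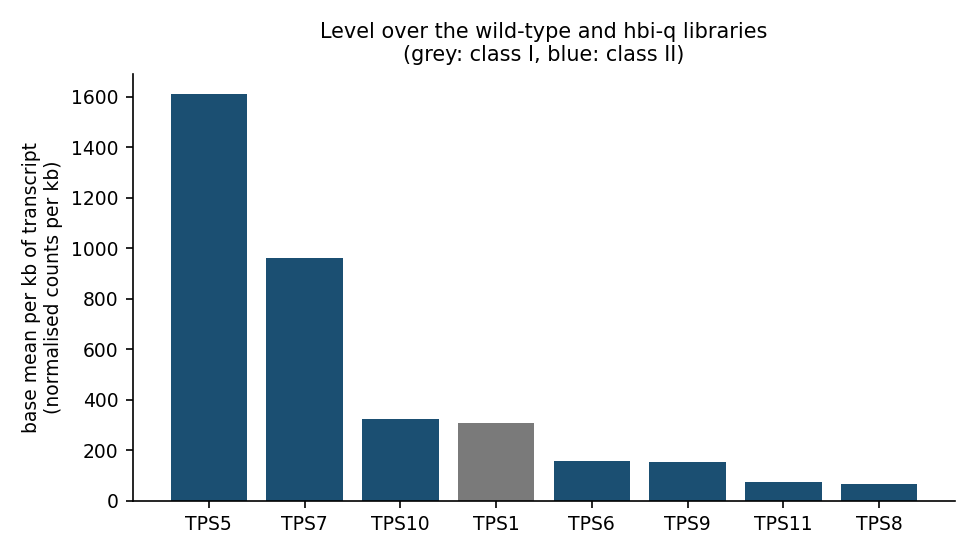
Bars give the base mean per kilobase of longest transcript (normalised counts per kb, linear axis from 0) of the 8 genes over the wild-type and hbi-q libraries of the authors' joint table, with class I in grey and class II in blue and no error bar, as the table gives none. TPS5 (1612) and TPS7 (963) stand above the other 6 genes, which lie between 64.4 and 325.

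Nitrate moved the class II genes in opposite directions in wild type. TPS5, the most abundant member and a binding partner of 14-3-3 proteins, fell 2.42-fold in the authors' deposited table (log2 fold change -1.28 ± 0.06 SE, DESeq2 adjusted p = 9.55e-96, 3 replicates a group). TPS9, one of the class II genes known to rise when sugar is short, rose 3.23-fold in the same authors' deposited table (1.69 ± 0.11 SE, DESeq2 adjusted p = 6.46e-54). Of all genes with a base mean of at least 100, 2.79% lay below TPS5. With a threshold of an adjusted p under 0.05 and at least a 2-fold change, 1 of 8 members rose and 1 fell, where 9.44% of the 22954 genes tested rose and 5.51% fell. The share of members called is thus near that of all genes in this table.

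The other 6 genes changed by less than 2-fold. TPS10 was at 0.87 ± 0.07 in the authors' deposited table (log2 fold change ± SE, DESeq2 adjusted p = 5.65e-31), TPS8 at 0.47 ± 0.15 and TPS11 at 0.46 ± 0.15. TPS6, known for a role in cell shape and leaf hair branching, was at -0.82 ± 0.10 in the authors' deposited table (DESeq2 adjusted p = 1.35e-16), the same sign as its relative TPS5. TPS1, the class I synthase, was at 0.33 ± 0.07 (DESeq2 adjusted p = 2.68e-05) and TPS7, the second most abundant gene, at -0.17 ± 0.08 (DESeq2 adjusted p = 0.0528), both from the authors' deposited table. Without a minimum fold, 7 of 8 members passed the adjusted p threshold, beside 58.2% of all genes, and TPS7 did not.

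**Figure D2:**
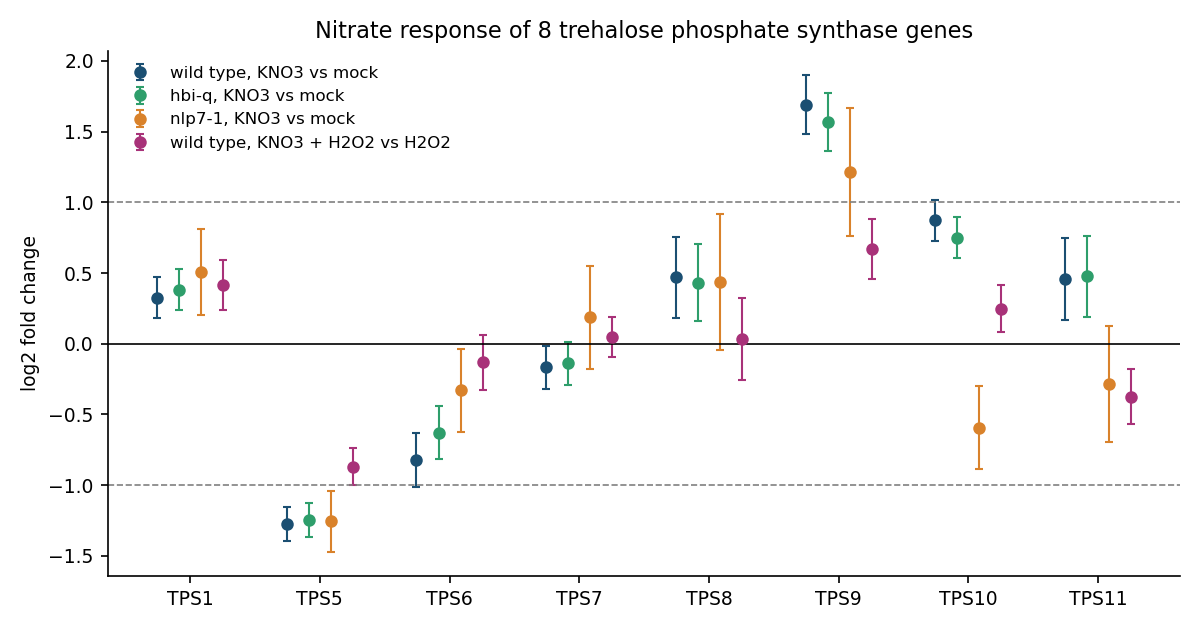
Log2 fold change of each gene in the authors' deposited tables, with bars for the 95% interval, in wild type, hbi-q, nlp7-1 and wild type with H2O2 (each against its own control), with dashed lines at a 2-fold change. Points for TPS5 lie between -1.28 and -0.87 and those for TPS9 between 0.67 and 1.69, while those for TPS10 reach from -0.59 in nlp7-1 to 0.87 in wild type.

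Across the 4 nitrate comparisons the family's spread was narrowest with H2O2. The 8 log2 fold changes ran from -1.28 to 1.69 in wild type, from -1.25 to 1.57 in hbi-q, from -1.26 to 1.21 in nlp7-1 and from -0.87 to 0.67 with H2O2, all from the authors' deposited tables. Their medians were 0.39, 0.41, -0.05 and 0.04, beside -0.01, 0.00, 0.00 and 0.00 over all genes. Their standard deviations were 0.94, 0.86, 0.76 and 0.48 over the 8 genes. Over all genes with a base mean of at least 100 the standard deviations were 0.80, 0.83, 0.80 and 0.65, so these too were narrowest with H2O2.

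In hbi-q the nitrate response of the family lay close to that of wild type. TPS9 rose by 1.57 ± 0.10 (log2 ± SE, DESeq2 adjusted p = 4.27e-49) and TPS5 fell with a log2 fold change of -1.25 ± 0.06 (DESeq2 adjusted p = 2.36e-91) in the authors' deposited table. These were again 1 riser and 1 faller of 8, where 10.1% of all genes rose and 6.06% fell. Without a minimum fold 7 of 8 members passed, beside 58.3% of all genes. TPS10 was at 0.75 ± 0.07 and TPS6 at -0.63 ± 0.10 in the authors' deposited table.

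The difference between hbi-q and wild type passed for none of the 8 genes. The test sets the difference of both log2 fold changes against their combined standard error, with Benjamini-Hochberg adjustment over the 22954 genes shared by both tables, of which 5.61% passed. It also found 0 members at an unadjusted p under 0.05. The difference was largest for TPS6, at 0.19 with a 95% interval of -0.07 to 0.46. For TPS9 it was -0.12 (interval -0.42 to 0.17), for TPS10 -0.12 (-0.33 to 0.08) and for TPS5 0.03 (-0.14 to 0.20). The interval for TPS11, a gene of low level, was wider, from -0.39 to 0.42.

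In nlp7-1 the response of TPS10 had the opposite sign to that in wild type. The authors' deposited table gives TPS10 at -0.59 ± 0.15 in nlp7-1 (log2 ± SE, DESeq2 adjusted p = 0.00038), where wild type was at 0.87 ± 0.07. The difference was -1.47 ± 0.17 (95% interval -1.80 to -1.14, adjusted p = 1.71e-15 by the test of the difference), a 2.76-fold smaller ratio. Of genes with a base mean of at least 100 in both tables, 0.503% had a lower difference than TPS10. Against hbi-q the difference was -1.34 ± 0.17 (adjusted p = 1.88e-12 by the same test), where 3.94% of all genes passed and TPS10 was the 1 member among them.

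TPS5 and TPS9 kept their calls in nlp7-1. TPS5 fell with a log2 fold change of -1.26 ± 0.11 (DESeq2 adjusted p = 1.19e-28) and TPS9 rose by 1.21 ± 0.23 (DESeq2 adjusted p = 1.02e-06) in the authors' deposited table, so 1 of 8 members rose and 1 fell where 9.03% and 6.63% of 22610 genes did. For TPS5 the difference from wild type was 0.02 with an interval of -0.23 to 0.26, and for TPS9 it was -0.48 with an interval of -0.97 to 0.02. Without a minimum fold 4 of 8 members passed, beside 42.6% of all genes, and standard errors were larger in this table than in the others. TPS1 was at 0.51 ± 0.16 in the authors' deposited table, TPS7 at 0.19 ± 0.19 and TPS8 at 0.44 ± 0.25.

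In all, 3 of 8 members differed between nlp7-1 and wild type, beside 11.7% of the 21790 genes in both tables. Besides TPS10 these were TPS6, with a difference of 0.49 ± 0.18 (adjusted p = 0.0494), and TPS11, with -0.74 ± 0.25 (adjusted p = 0.0368). TPS11 was at -0.28 ± 0.21 in nlp7-1 and at 0.46 ± 0.15 in wild type in the authors' deposited tables, and TPS6 at -0.33 ± 0.15 and -0.82 ± 0.10. When all test ratios were scaled to the spread seen across genes, 0.303% of genes passed and TPS10 was the 1 member left (adjusted p = 0.00241), as it was against hbi-q, where 0.184% passed. The shoot markers, 8 genes of photosynthetic tissue, also differed in 3 of 8 cases, all with a lower nitrate response in nlp7-1, and the root markers in 2 of 8, also lower. The part of tissue makeup in the TPS differences was not tested.

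**Figure D3:**
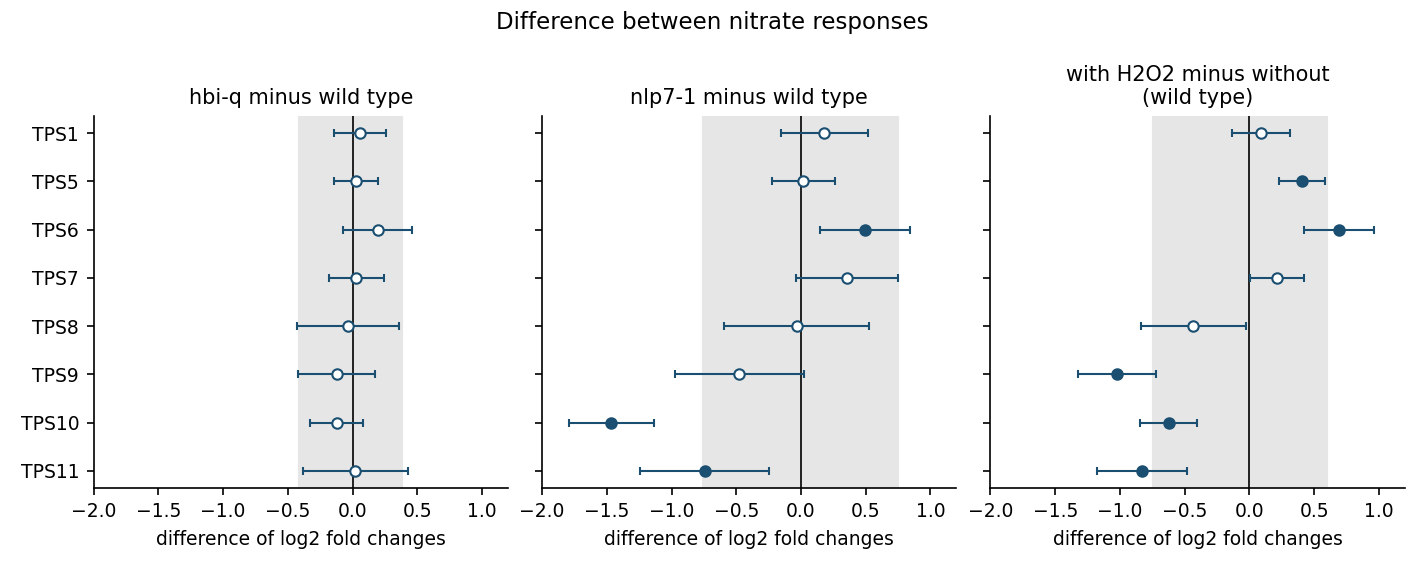
Difference between log2 fold changes for each gene, with 95% intervals, for hbi-q minus wild type, nlp7-1 minus wild type and with minus without H2O2. Filled points have an adjusted p under 0.05 and the grey band spans the 5th to the 95th percentile of all genes with a base mean of at least 100. No point is filled for hbi-q, TPS10 stands at -1.47 for nlp7-1, and 5 points are filled for H2O2.

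H2O2 alone raised TPS11. In the authors' deposited table of H2O2 against mock, TPS11 rose 3.29-fold (log2 fold change 1.72 ± 0.12 SE, DESeq2 adjusted p = 1.43e-42, 3 replicates a group). This gene is known in Arabidopsis for a part in defence against aphids. It was the 1 member of 8 called higher, where 4.98% of 22311 genes were. The other 7 genes were not listed there, which says that none passed both thresholds, and gives no value for them. Split into its 2 groups, the base mean of TPS11 in the authors' deposited table gave 182 normalised counts after mock treatment and 599 after H2O2.

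With H2O2 present, nitrate called none of the 8 genes at 2-fold. By DESeq2 0 members rose and 0 fell, while 6.54% of 22302 genes rose and 4.14% fell, and 5 members had an unadjusted p under 0.05. The same 5 had an adjusted p under 0.05 at any fold, beside 53.3% of all genes. TPS5 was at -0.87 ± 0.07 (DESeq2 adjusted p = 4.91e-38) and TPS9 at 0.67 ± 0.11 (DESeq2 adjusted p = 3.81e-09) in the authors' deposited table. TPS1 was at 0.42 ± 0.09, TPS10 at 0.25 ± 0.08 and TPS11 at -0.37 ± 0.10 there, and TPS6, TPS7 and TPS8 lay between -0.13 and 0.05 in the authors' deposited table.

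The nitrate response differed with H2O2 for 5 of the 8 genes, beside 24.8% of 22204 genes. TPS9 was lower by the largest amount, with a difference of -1.02 ± 0.15 (95% interval -1.32 to -0.72, adjusted p = 9.89e-10 by the test of the difference). TPS11 differed by -0.83 ± 0.18 (adjusted p = 3.73e-05) and TPS10 by -0.62 ± 0.11 (adjusted p = 5.13e-07). The TPS10 value was smaller with H2O2, and the TPS11 value turned from 0.46 ± 0.15 without H2O2 to -0.37 ± 0.10 with it in the authors' deposited tables. TPS6 differed by 0.69 ± 0.14 (adjusted p = 9.83e-06) and TPS5 by 0.41 ± 0.09 (adjusted p = 7.66e-05), both less lowered by nitrate. With test ratios scaled to the spread across genes, 3.63% of genes passed and TPS9 was the 1 member left (adjusted p = 0.0266).

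The remaining 3 genes did not pass. The differences were 0.22 for TPS7 (95% interval 0.01 to 0.42, adjusted p = 0.129), -0.43 for TPS8 (interval -0.84 to -0.03, adjusted p = 0.112) and 0.09 for TPS1 (interval -0.14 to 0.31, adjusted p = 0.645). In 7 of 8 members the size of the log2 fold change was smaller with H2O2 than without, with TPS1 the exception, and the median size was 0.31 against 0.65. Among 16010 genes with a base mean of at least 100 in both tables, 56.4% were smaller with H2O2. By signed difference, all 8 shoot markers had a lower nitrate response with H2O2, and the root markers differed in 7 of 8 cases, 3 higher and 4 lower. A lower response was not always a smaller one, as LHCA1, a shoot marker, went from 0.14 without H2O2 to -1.01 with it. Such a difference passed for 24.8% of all genes. The part of tissue makeup was not tested.

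The shoot and root markers were all present. The 8 root markers summed to 4090 normalised counts after H2O2 and 4778 after KNO3 with H2O2, against a summed base mean of 10674 in the authors' deposited table of wild type and hbi-q, which was normalised separately. Of these, 4 of 8 were listed as lower in the authors' deposited table of H2O2 against mock, and none of the 8 shoot markers was listed there. Of the 22311 genes that served as background, 1810 were listed there in either direction, and 1112 of these were higher. The shoot markers summed to 50846 after H2O2, 48781 after KNO3 with H2O2 and 47833 as the base mean of wild type and hbi-q. In wild type, nitrate raised 5 of 8 shoot and 3 of 8 root markers, beside 9.44% of all genes. No marker was below 1 normalised count in these tables, and the part of these shifts in the values of TPS11 and TPS9 was not tested.

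Levels per group could be split for the tables that behave as a fit of 2 groups of 3 libraries. This was checked on 977 genes with a base mean of at least 100 in both H2O2 tables. Their H2O2 level obtained from one table and from the other differed by a log2 median of -0.0708. The standard deviation was 0.000504, which is a constant scale. TPS11 stood at 571 normalised counts after H2O2 and 440 after KNO3 with H2O2 in that scale. TPS5 stood at 6029 and 3301, and TPS9 at 322 and 512. Combining the 3 log2 fold changes of TPS11 puts KNO3 with H2O2 at 2.54 times the mock level and at 1.85 times the KNO3 level, values with no test.

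In nlp7-1 the same split, which no other table there can check, gave TPS10 at 1150 normalised counts after mock treatment and 762 after KNO3. TPS5 stood at 6169 and 2582, TPS9 at 234 and 542, and TPS7 at 2326 and 2649. Summed per kilobase, the 7 class II genes went from 3113 to 2129 normalised counts per kilobase while TPS1 went from 206 to 293. With H2O2 in wild type the class II sum went from 3457 to 2737 and TPS1 from 191 to 254. TPS5 held 54.6% of the family's level after mock treatment and 31.3% after KNO3 in nlp7-1, and the class I share went from 6.20% to 12.1%. These sums have no error of their own and were not tested.

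**Figure D4:**
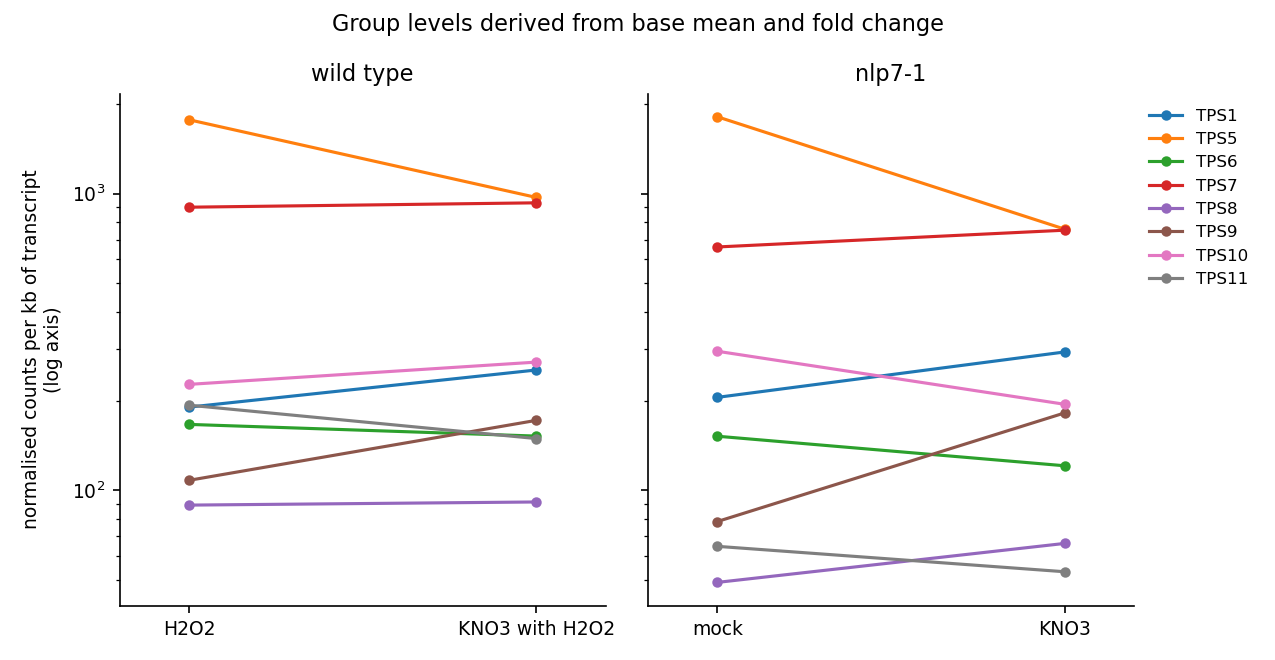
Level per kilobase (normalised counts per kb, log axis) of each gene in the control and in the nitrate group, joined by a line and derived from the authors' base means and fold changes, for wild type with H2O2 (left) and nlp7-1 (right). TPS5 goes from 1772 to 970 with H2O2 and from 1813 to 759 in nlp7-1, and TPS7 lies close to TPS5 after nitrate in nlp7-1 (752).

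Likeness of the proteins and likeness of the response did not follow the same order. Over the 4 nitrate comparisons, the distance between log2 fold changes (Euclidean, over 4 values) was 1.95 for TPS8 and TPS9, the most alike proteins, and 1.41 for TPS5 and TPS6. The shortest distance among the members was 0.415, between TPS1 and TPS8, and the longest 5.02, between TPS5 and TPS9. Among 15349 genes with a base mean of at least 100 in every table, those with values closest to TPS5 were UBC29 (distance 0.124), a ubiquitin-conjugating enzyme, ABI1 (0.129), a protein phosphatase of abscisic acid signalling, and AT4G19390 (0.138). Closest to TPS9 were AT4G02920 (0.114), HAT3 (0.136), a homeobox factor, and ARR4 (0.147), a response regulator of cytokinin signalling.

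At the next step of the pathway, TPP genes spanned log2 fold changes from -1.69 to 3.60 in wild type in the authors' deposited table. Of the 10 TPP genes 8 were listed in wild type, and nitrate raised 2 and lowered 2. TPPB rose by 3.60 ± 0.19 (log2 ± SE, DESeq2 adjusted p = 1.13e-74) and TPPA by 1.37 ± 0.08 (DESeq2 adjusted p = 5.96e-57) in the authors' deposited table. TPPI was at -1.69 ± 0.13 (DESeq2 adjusted p = 9.28e-36) and TPPD at -1.16 ± 0.12 (DESeq2 adjusted p = 6.22e-20), and both fell in the authors' deposited table. The other 4 listed genes did not reach 2-fold, with TPPH at 0.74 ± 0.16, TPPJ at 0.36 ± 0.10, TPPE at -0.41 ± 0.12 and TPPC, which had a base mean of 4.05, at -0.46 ± 0.88 in the authors' deposited table. The list's median was -0.02, beside -0.01 over all genes, of which 9.44% rose and 5.51% fell.

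TPPA and TPPB rose in each of the other 3 nitrate comparisons too. In hbi-q 2 rose and 3 fell, TPPC being the additional one at -2.37 ± 1.01 in the authors' deposited table. In nlp7-1, where all 10 were listed, 2 rose and 2 fell, and TPPG (base mean 976) was at -0.09 ± 0.16 and TPPF (base mean 48.7) at 0.13 ± 0.36 in the authors' deposited table. With H2O2 2 rose and none fell at 2-fold, while 5 of 8 had an unadjusted p under 0.05, beside 57.0% of all genes. Of all genes, 10.1% rose and 6.06% fell in hbi-q, 9.03% and 6.63% in nlp7-1, and 6.54% and 4.14% with H2O2. The response of TPPB was smaller than in wild type with nitrate alone in each of these 3 comparisons. The difference was -0.83 ± 0.26 in hbi-q (adjusted p = 0.028), -1.07 ± 0.27 in nlp7-1 (adjusted p = 0.00298) and -1.32 ± 0.31 with H2O2 (adjusted p = 0.000251), by the test of the difference. With H2O2 TPPD (difference 0.79, adjusted p = 9.24e-06), TPPI (0.70, adjusted p = 0.00238) and TPPJ (-0.45, adjusted p = 0.0146) differed as well, beside 24.8% of all genes. Between hbi-q and wild type 5.61% of all genes differed, and between nlp7-1 and wild type 11.7%. Unlike those of the 8 TPS genes, the test ratios of the TPP genes were not scaled to the spread across genes.

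**Figure D5:**
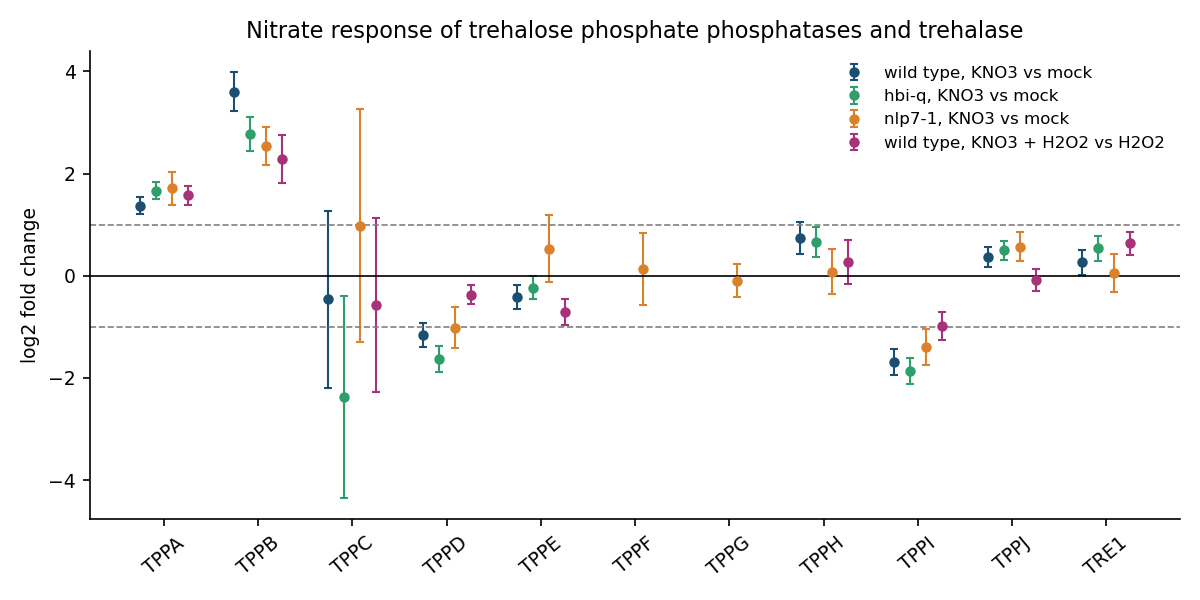
Log2 fold change of the 10 trehalose phosphate phosphatase genes and the trehalase TRE1 in the 4 nitrate comparisons of the authors' deposited tables, with 95% intervals and dashed lines at a 2-fold change. TPPB lies between 2.29 and 3.60 and TPPA between 1.37 and 1.71 in all 4, and TPPF and TPPG have values only in nlp7-1.

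Trehalase and the kinase downstream held no 2-fold call. TRE1, the 1 trehalase gene, was at 0.26 ± 0.13 in wild type (DESeq2 adjusted p = 0.0675) and at 0.64 ± 0.12 with H2O2 (DESeq2 adjusted p = 1.30e-07) in the authors' deposited tables. There TRE1 was also at 0.54 ± 0.13 in hbi-q (DESeq2 adjusted p = 5.96e-05) and at 0.05 ± 0.19 in nlp7-1. Its difference with H2O2 against without it did not pass (0.38 ± 0.17, adjusted p = 0.0903 by the test of the difference). None of the 7 SnRK1 subunit genes was called in any comparison by DESeq2, and 3 of 7 had an unadjusted p under 0.05 in wild type, 5 in hbi-q, 3 in nlp7-1 and 6 with H2O2. Of all genes 61.5%, 61.5%, 49.5% and 57.0% did in these tables. KIN10, the main catalytic subunit, was at -0.73 ± 0.07 in wild type in the authors' deposited table (DESeq2 adjusted p = 8.78e-23), a value chosen for mention after it was seen. TPS4, a further class I gene with a base mean of 7.34, was at -1.88 ± 0.73 in wild type in the authors' deposited table (DESeq2 adjusted p = 0.0198), and fell.

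Genes known to rise in sugar starvation did not move as 1 group. Of 12, 9 were listed in wild type, where nitrate raised 3 and lowered 2, with a median log2 fold change of -0.05, while 9.44% of all genes rose and 5.51% fell. ASN1, an asparagine synthetase with a base mean of 18.0, rose by 3.52 ± 0.55 and DIN10, a raffinose synthase, by 1.86 ± 0.08 in the authors' deposited table. BCAT2, an enzyme of branched-chain amino acid breakdown, was at -2.72 ± 0.10 and PRODH1, a proline dehydrogenase, at -2.29 ± 0.06 in the authors' deposited table, and both fell. In nlp7-1 3 rose and 3 fell of 12 listed, and with H2O2 present nitrate raised 2 and lowered 3 of 9, where the shares of all genes were 9.03% and 6.63% in nlp7-1 and 6.54% and 4.14% with H2O2. In the table of H2O2 against mock 4 of 12 were listed, all higher, beside 4.98% of all genes. Among them was ASN1 at 3.42 ± 0.57 in the authors' deposited table.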

How the data were processed

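Sequencing of mRNA on a BGISEQ-500, mapping with HISAT and Bowtie2, counting with htseq-count and testing with DESeq2 are given per the labels' protocols and the series design text, without versions. The files are the authors' 5 tables of comparisons, and no source used here says which libraries entered each fit. Per the file headers, the deposited base mean is a mean signal of counts scaled by size factors. Fold changes in the authors' deposited tables are log2 values, each with a standard error. The test score in the authors' tables is their ratio. Each deposited p-value is the authors' DESeq2 test, with an adjusted p-value beside it. Wild type and hbi-q tables held the same base means, as 1 joint fit would, and the other tables were normalised separately, so tests used fold changes within tables and no level was tested across them. P-values measure the spread between samples the labels call biological replicates.

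Differences between 2 fold changes were tested with a normal test on the summed squared standard errors, adjusted over all genes of both tables. A simulation of this test drew its noise at the authors' standard errors, so it cannot show whether these match the real spread. Across genes, the robust standard deviation of the test ratio was 1.30 for hbi-q minus wild type and 1.88 for nlp7-1 minus wild type. It was 1.98 for nitrate with minus without H2O2 and 1.61 for nlp7-1 minus hbi-q. The test uses the authors' standard errors and no count model, since no values per library were analysed, so it is not that of a joint fit. Group levels were derived from base mean and fold change for groups of equal size. Proteins were translated from TAIR10.1 and aligned globally. Python 3.11.15, pandas 2.3.3, numpy 2.4.6, scipy 1.17.1 and Biopython 1.88 were used. Alternatives are an adjusted p under 0.01, a base mean of at least 10, median centring, a 2-fold or no minimum, robust scaling and coding length.

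The members, gene lists, motifs and tests were chosen with earlier results of these data known. Named were all 8 genes, all TPP genes, at most 4 genes of each other list that were called (largest change in wild type) and the 3 genes closest to TPS5 and to TPS9. NLP7, KIN10 and TRE1 were named outside this rule, as were TPS2 and TPS3, which had no values. A check of the list of H2O2 against mock found only genes past both an adjusted p under 0.05 and 2-fold, and the 22311 genes in it or in the table of KNO3 with H2O2 served as its background. The promoter window of TPS6 is not reported here.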

Additional observations from a re-analysis of the deposited data

Results flagged for a closer look

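These 9 values were marked because the difference between 2 nitrate responses passed its own test, with adjustment over all genes of both tables. Between nlp7-1 and wild type these were TPS10 at -1.47, TPS11 at -0.74 and TPS6 at 0.49 on the log2 scale. TPS10 also differed between nlp7-1 and hbi-q, by -1.34. With H2O2 against without it, in wild type, the differences were -1.02 for TPS9, -0.83 for TPS11, -0.62 for TPS10, 0.69 for TPS6 and 0.41 for TPS5. TPS10 was the 1 gene that differed by genotype in both comparisons with nlp7-1 and with H2O2 as well.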

How the results depend on the processing

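Of 257 verdicts on single genes under other settings, 226 kept their side of the threshold. Another 17 crossed to pass it and 14 crossed to fail it. No gene that passed under either setting changed direction. With median centring the difference of TPS5 between nlp7-1 and hbi-q, which passed under neither, went from -0.0099 to 0.0134. All 17 that crossed to pass came from dropping the minimum fold, which gave 7 called members in wild type, 7 in hbi-q, 4 in nlp7-1 and 5 with H2O2. The count of members that differed between nlp7-1 and wild type went from 3 to 1 with an adjusted p under 0.01, to 1 with a 2-fold minimum and to 1 with robust scaling. With H2O2 the count went from 5 to 1 with a 2-fold minimum and to 1 with robust scaling. These stricter rules remove differences by construction. Per kilobase of coding length, 4 of 8 genes kept their place in the order of levels. No paired analysis was possible because no values per library were analysed, and leaving out replicates and another scaling of counts were not run for the same reason. In the table of H2O2 against mock, no minimum fold and a new adjustment were not run, as it holds called genes only. Precision is lowest in nlp7-1, and library depth is unknown.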

Other observations

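Of 17 genes for enzymes of nitrate and carbon use, nitrate raised 5 and lowered 5 in wild type, with a median log2 fold change of -0.12, while 9.44% of all genes rose and 5.51% fell. NIA1, a nitrate reductase, rose by 3.50 ± 0.07 in the authors' deposited table (log2 ± SE, 3 replicates a group). The phosphoenolpyruvate carboxylase genes PPC2 and PPC3 had log2 fold changes of 2.32 ± 0.07 and 1.98 ± 0.08 and rose, and PPC4, with a base mean of 4.50, fell and was at -3.34 ± 1.24, all in the authors' deposited table. With H2O2 present nitrate raised 4 and lowered 0 of 16 listed, where 6.54% of all genes rose and 4.14% fell. Of the 16, 12 had an unadjusted p under 0.05 by DESeq2, beside 57.0% of all genes. The NIA1 response was smaller with H2O2 by a difference of -1.83 ± 0.10 (adjusted p = 1.49e-72 by the test of the difference), and smaller in nlp7-1 by -1.08 ± 0.24 (adjusted p = 0.000336). It was larger in hbi-q than in wild type by 1.18 ± 0.11 (adjusted p = 4.55e-25). Of all genes, 24.8% differed with H2O2, 11.7% in nlp7-1 and 5.61% in hbi-q by this test. The NIA1 test ratios were not scaled to the spread across genes.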
